A study of Rattus norvegicus with 16 samples.

Results

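A pair of mature microRNAs (miRNAs) is cut from the miR-490 hairpin, which lies inside Chrm2, the gene of the M2 muscarinic acetylcholine receptor. The array carries them as rno-miR-490 and rno-miR-490*, and these 2 of the 677 rat miRNAs on the array are described here. They were chosen by their measured values, namely the ratio of the arms and their levels in the 2 strains, so the strain differences of both arms and of their ratio are given as descriptions, with no test. In 2-day-old Hypertrophic Heart Rat (HHR) pups both arms gave a slightly higher signal than in the Normal Heart Rat (NHR), 1.10-fold for rno-miR-490 and 1.16-fold for rno-miR-490*, on a scale where most tested miRNAs were lower in HHR. Neither arm differed detectably between females and males.

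The study measured miRNAs in the hearts of 16 pups, with 4 females and 4 males of each strain, all aged 2 days. HHR is an inbred rat strain labelled hypertrophic, and NHR is its age-matched comparison strain with a normal heart. Heart size at 2 days is not among the values used here, so these pups' hearts are not taken as enlarged. No group received a treatment and none carries an engineered allele per the labels. From each animal 100 ng of total RNA was labelled with the dye Cy3 and hybridised to its own array, with no pooling. The sample labels name the whole heart, while the series' design text describes ventricles separated from the atria, so which of these was measured is not settled here.

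The M2 receptor answers acetylcholine from the vagus nerve. It acts through inhibitory G proteins, which open potassium channels and lower cyclic AMP, and so slows the heartbeat, above all in the pacemaker, the conducting tissue and the atria. A hairpin within a gene can be copied with its host's primary transcript; the enzymes Drosha and Dicer then release a duplex of 2 arms, and each arm loaded into an Argonaute protein recognises targets mainly through its seed, bases 2 to 8. The arrays measured the mature miRNAs only, and Chrm2 mRNA was not measured on them.

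The hairpin is shown because every result below compares its arms. Sequences and positions are those of RefSeq on the GRCr8 assembly, in which both names were found; the array files name the older build rn4, and no rn4 position is given. RefSeq lists the arms under their newer names, and the array name rno-miR-490 was taken as rno-miR-490-3p and rno-miR-490* as rno-miR-490-5p. That step rests on the naming history of this miRNA, since no probe sequence was used to check it. The hairpin spans chr4:66014586-66014669 on the plus strand, 84 bases, with the arms in capitals, the 5p arm first.
Mir490 hairpin: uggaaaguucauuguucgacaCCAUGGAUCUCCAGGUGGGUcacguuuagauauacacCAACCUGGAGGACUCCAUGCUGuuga
The mature arms follow with the seed in capitals, at chr4:66014644-66014665 for the first and chr4:66014607-66014626 for the second.
rno-miR-490 (3p): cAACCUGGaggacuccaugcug
rno-miR-490* (5p): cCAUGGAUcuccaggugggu

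The arms are 22 and 20 bases long and 17 bases apart. In the fold predicted by RNAfold, with a free energy of -32.3 kcal/mol, 16 bases of the 5p arm paired with the 3p arm. The arms have different seeds, and no other of the 693 mature rat miRNA names in the RefSeq table shares either one, so neither arm has a seed family among those names. They are alike in base composition, with 13 G or C bases in rno-miR-490 (59.1%) and 12 in rno-miR-490* (60.0%). In separate listings of genes and promoters, Chrm2 spans chr4:65981136-66116128 on the same strand, 134993 bases, and the hairpin begins 33450 bases after the start of the gene. No exon positions were used, so the hairpin is placed inside the gene but not in a named exon or intron.

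Each miRNA was read on 20 spots per array, for these arms as 2 probes of 10 spots each. The scanner software called both arms detected on all 16 arrays, which held for 186 of the 677 miRNAs; 417 were detected on none, and single arrays gave 200 to 239 detected miRNAs. Levels are background-subtracted signals after every array had been scaled to the same upper quartile of its well-measured probes, in arbitrary units. Before that scaling the upper quartile was 418 to 525 on the HHR arrays and 295 to 503 on the NHR arrays, where 3 arrays were as bright as the HHR arrays (443 to 503) and 5 were dimmer (295 to 327). Array brightness thus moved with strain. No spot was saturated, and the number of arrays limits the precision.

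For rno-miR-490, the 3p arm, the HHR females 1 to 4 read 84.7, 84.0, 82.5 and 91.5, and the HHR males 81.6, 89.3, 83.2 and 81.5. The NHR females read 74.3, 74.6, 77.7 and 77.7, and the NHR males 81.8, 75.8, 79.7 and 73.9. Of the 8 HHR pups 6 lay above every NHR pup, and 7 of the 8 NHR pups below every HHR pup; the overlap was NHR male 1 at 81.8 against HHR males 4 and 1 at 81.5 and 81.6. On the log2 scale the HHR mean was 6.40 ± 0.061 (SD, n = 8) and the NHR mean 6.27 ± 0.052 (SD, n = 8). HHR minus NHR was 0.14 ± 0.031 (SE), or 1.10-fold, with 0.17 ± 0.044 in females and 0.11 ± 0.044 in males. In whole tissue, more cells of a type and more miRNA per cell cannot be told apart.

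For rno-miR-490*, the 5p arm, the HHR females read 88.9, 92.8, 90.0 and 101.1, and the HHR males 94.0, 98.6, 95.1 and 87.4. The NHR females read 81.0, 76.9, 82.6 and 89.1, and the NHR males 80.5, 75.7, 81.5 and 75.6. Here too 6 HHR pups lay above every NHR pup and 7 NHR pups below every HHR pup, with NHR female 4 at 89.1 above HHR female 1 at 88.9 and HHR male 4 at 87.4. HHR male 4 was the lowest HHR pup and NHR male 4 the lowest NHR pup in both arms, and HHR female 4 was the highest in both. The log2 means were 6.54 ± 0.073 (SD, n = 8) in HHR and 6.33 ± 0.079 (SD, n = 8) in NHR. HHR minus NHR was 0.22 ± 0.039 (SE), or 1.16-fold, with 0.18 ± 0.055 in females and 0.26 ± 0.055 in males.

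**Figure D1:**
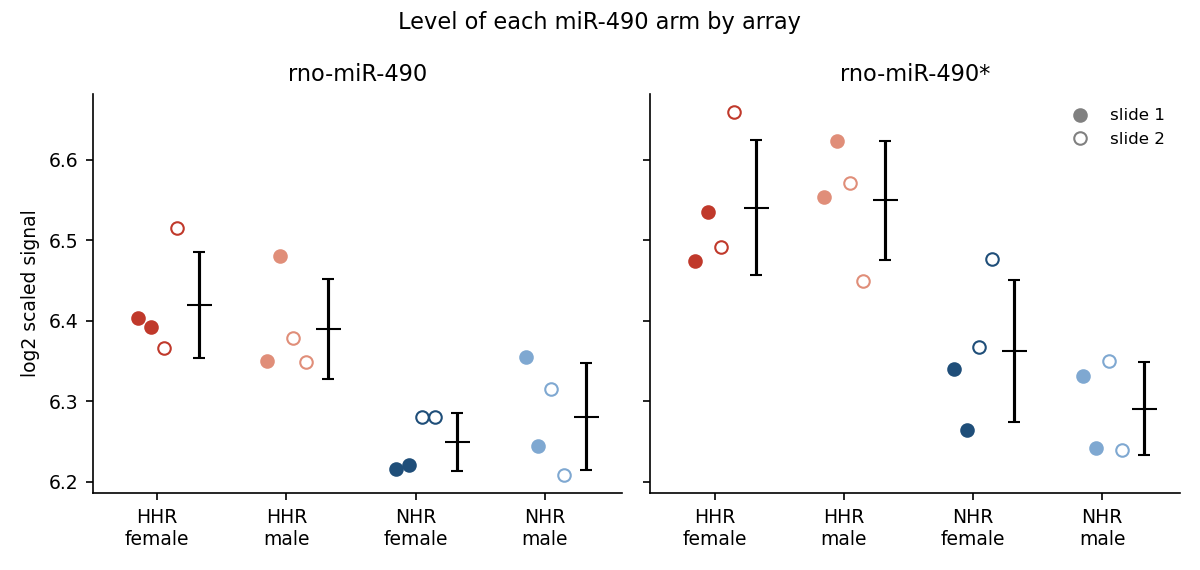
Each point is 1 array's log2 scaled signal of rno-miR-490 (left) or rno-miR-490* (right), by strain and sex; filled points are slide 1 and open points slide 2, and the bars give the mean ± SD of 4 arrays. HHR pups sit higher in both panels, with 6 of 8 above every NHR pup.

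The 2 slides, each with 4 arrays of each strain, gave like differences: 0.15 on slide 1 and 0.13 on slide 2 for rno-miR-490, and 0.25 and 0.18 for rno-miR-490*. The 3 bright NHR arrays averaged a log2 level of 6.24 ± 0.036 (SD, n = 3) for rno-miR-490 and 6.28 ± 0.073 (SD, n = 3) for rno-miR-490*, against 6.28 ± 0.060 (SD, n = 5) and 6.35 ± 0.077 (SD, n = 5) on the 5 dim NHR arrays. With only the bright arrays the strain difference was 0.15 for rno-miR-490 and 0.24 for rno-miR-490*, and with brightness as a covariate over all 16 arrays 0.16 and 0.26.

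All 4 probes placed HHR higher. The probes of rno-miR-490 had similar signals, 81.0 ± 3.50 and 88.6 ± 4.16 (SD, n = 8) in HHR and 73.2 ± 2.42 and 80.7 ± 3.69 (SD, n = 8) in NHR, and strain differences of 0.14 and 0.13 on the log2 scale. Those of rno-miR-490* were unequal. The brighter read 134 to 180 with a strain difference of 0.21, and the dimmer 16.8 to 23.2 with 0.26; the dimmer was well above background on all 8 HHR arrays but on 4 of the 8 NHR arrays. Spots of 1 array set the level of either arm to within a median standard error of 0.021 on the log2 scale, smaller than the spread between pups of a group, whose pooled SD was 0.059 for rno-miR-490 and 0.077 for rno-miR-490*.

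How large these differences are depends on the scale. Over all 233 tested miRNAs, those detected on at least 4 arrays, the median strain difference was -0.11, and 59 were above 0; 23 had a larger difference than rno-miR-490 and 14 a larger one than rno-miR-490*. limma called 54.5% of the tested miRNAs between strains at an adjusted p under 0.05; the share higher in HHR was 9.01% and the share lower 45.5%. Nothing is read from this about the arms, which were chosen on that contrast. Of the called miRNAs 83.5% were lower in HHR under the scaling used, but 40% under quantile normalization or spike-in scaling, 32.2% under median centring, 20.8% with no scaling, 13.5% with the percentile over all probes, 51.4% with the scanner's total gene signal, 98.8% after a normexp background and 13.3% in the authors' deposited values. The median of all tested miRNAs moved with the scaling from -0.11 to 0.23 on the log2 scale.

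Both arms stayed above 0 under all 6 scalings, from 0.14 to 0.48 for rno-miR-490 and 0.22 to 0.56 for rno-miR-490*. Relative to the median of all tested miRNAs they moved little, 0.22 to 0.25 and 0.28 to 0.33. That was nearly fixed in advance, since every scaling but quantile normalization changes an array by a single constant. Another background correction lowered the differences of both arms. With normexp, which replaces the scanner's subtraction, the difference of rno-miR-490 was -0.015 and that of rno-miR-490* 0.039, or 0.066 and 0.12 with the same offset added after scaling; relative to the median these were 0.18 and 0.24, and 0.12 and 0.17 with the offset after scaling, against 0.25 and 0.32 in the reported setting.

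**Figure D2:**
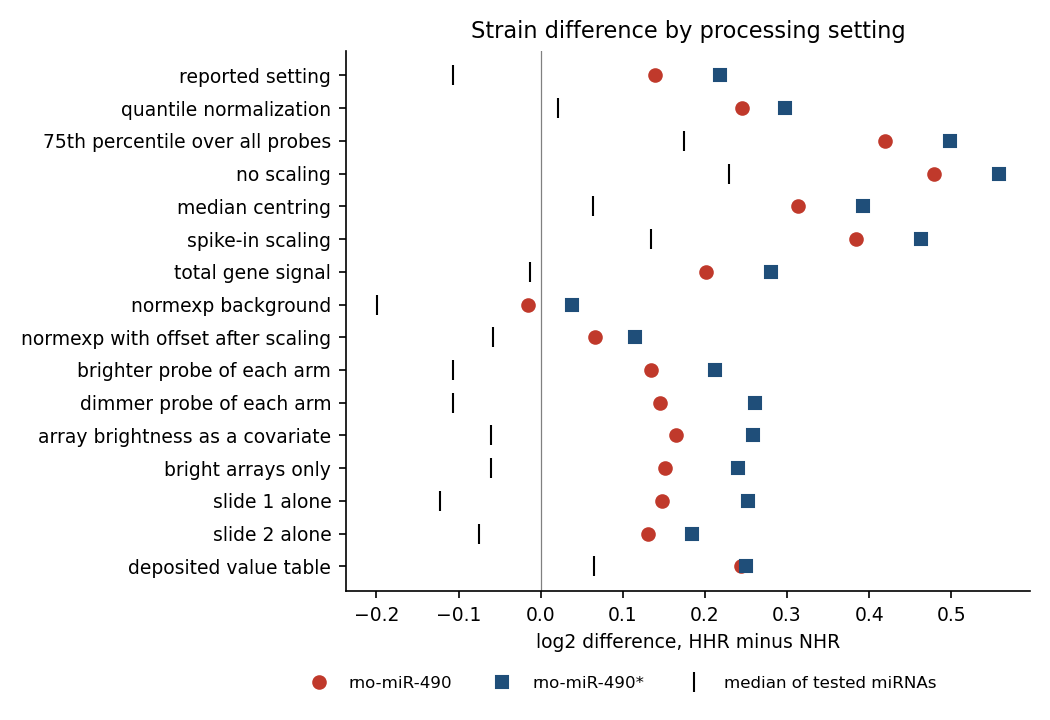
Log2 difference between strains, HHR minus NHR, of rno-miR-490 (circles), rno-miR-490* (squares) and the median of all tested miRNAs (bars) under the reported setting and 15 alternatives. The members and the median shift together with the scaling, which mostly follows from changing each array by a single constant. Among these settings rno-miR-490 lies below 0 with the normexp background only.

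Between the sexes the arms were tested, since sex was no part of their choice. Males minus females was 0.00087 ± 0.031 (SE) for rno-miR-490, with a 95% interval from -0.067 to 0.068, and -0.031 ± 0.039 for rno-miR-490*, with an interval from -0.11 to 0.053; limma's adjusted p over all 233 miRNAs was 0.983 and 0.970. No tested miRNA was called by sex (0%), with 23 at an unadjusted p under 0.05. The strain difference was smaller in males by 0.061 ± 0.063 for rno-miR-490, an interaction of -0.061 with an interval from -0.20 to 0.074, and larger in males by 0.081 ± 0.078 for rno-miR-490*, with an interval from -0.087 to 0.25. Both adjusted p were 0.931 in limma, and it called 0% of the tested miRNAs for the interaction, with 9 at an unadjusted p under 0.05.

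The arm ratio, the log2 signal of rno-miR-490 minus that of rno-miR-490*, does not change with the scaling of an array by a constant. Its absolute value depends on how well each probe binds and on the labelling, so a ratio near 0 does not say that the arms are equally abundant, and differences between arrays alone are read. HHR females gave -0.070, -0.14, -0.13 and -0.14, and HHR males -0.20, -0.14, -0.19 and -0.099. NHR females gave -0.12, -0.044, -0.087 and -0.20, and NHR males 0.023, 0.0026, -0.034 and -0.031. All 4 NHR males lay above every other pup of the study, while the other 3 groups overlapped.

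The group means of the ratio were -0.12 ± 0.035 in HHR females, -0.16 ± 0.048 in HHR males, -0.11 ± 0.065 in NHR females and -0.0099 ± 0.027 in NHR males (SD, n = 4 each). The strain difference over both sexes was -0.079 ± 0.026 (SE), a 1.06-fold shift towards rno-miR-490* in HHR. It was -0.15 ± 0.037 in males and -0.0079 ± 0.037 in females. It was -0.10 on slide 1 and -0.053 on slide 2, and -0.0070 in the authors' deposited values, in which both arms differed by about the same amount.

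**Figure D3:**
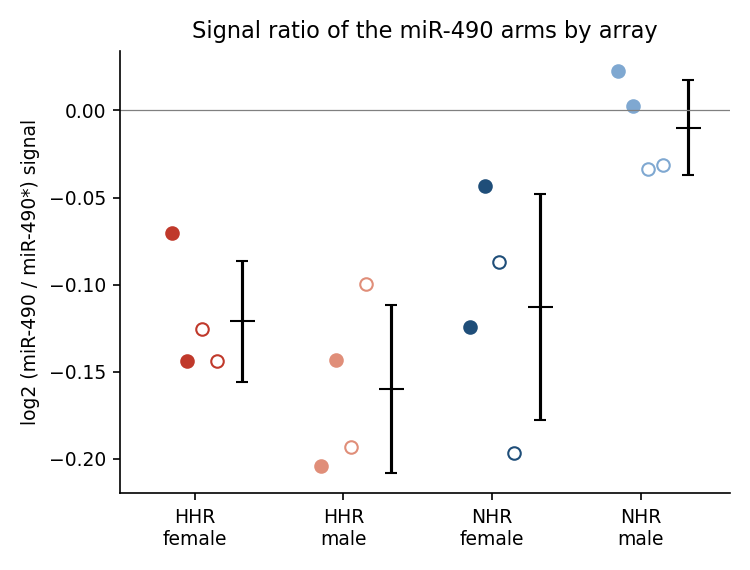
Each point is 1 array's log2 ratio of the signals of rno-miR-490 and rno-miR-490*, by strain and sex; filled points are slide 1, open points slide 2, and the bars give the mean ± SD of 4 arrays. The 4 NHR males, from -0.034 to 0.023, sit above the 12 other arrays.

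The interaction of strain and sex on the arm ratio was -0.14 ± 0.053 (SE), with a 95% interval from -0.26 to -0.029. Its p was 0.0178 in limma before adjustment and 0.196 after adjustment over the 22 hairpins whose arms were both detected on all arrays, so it did not pass the threshold. By p it was the second smallest of the 22 and by size the eighth, and limma called 0% of the hairpins for the interaction, with 2 at an unadjusted p under 0.05. Over all alternatives it stayed below 0, from -0.21 to -0.065, with adjusted p from 0.109 to 0.997. Males minus females over both strains was 0.032 ± 0.026, with an interval from -0.025 to 0.089 and an adjusted p of 0.983; limma called 0% of the hairpins by sex, with 0 at an unadjusted p under 0.05.

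Set among those 22 hairpins, the miR-490 ratio was one of the steadiest. The arms deviated together from their group means with r = 0.80 over the 16 arrays, the third highest of the 22, whose range was -0.077 to 0.95 and median 0.46. Both arms of a hairpin share the array, its labelling and its scaling, which bear on this correlation. The within-group SD of the log2 arm ratio was 0.046, the second smallest, against a median of 0.12 and a largest value of 0.30. The miR-322, miR-378 and miR-199a ratios were close to it, at 0.045, 0.048 and 0.049. The ranking did not account for the signal level of the arms.

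By the strain difference of the arm ratio, 8 hairpins were lower than miR-490, and the median of the 22 was -0.026. Its nearest neighbours were miR-30e (-0.097), miR-362 (-0.094) and miR-199a (-0.079) below and miR-30a (-0.064), miR-542 (-0.040) and miR-133a (-0.013) above. The most negative were miR-125a (-0.26), miR-322 (-0.14) and miR-30b (-0.13), and the most positive let-7b (0.36), miR-1 (0.28) and miR-99a (0.18). In all of these but miR-322, the arm with the dimmer signal had the lower strain difference, so their opposite signs come from the order of the arms. limma called 13.6% of the hairpins between the strains, namely miR-322, miR-30e and let-7b; nothing is read from this for miR-490. The miR-30e ratio gave -0.18 ± 0.041 (SE) in males and -0.013 ± 0.041 in females. Its interaction was -0.17 ± 0.058, with an adjusted p of 0.196 in limma. As for miR-490, the larger shift was in males. The shared sign depends on the order of the arms, here rno-miR-30e minus rno-miR-30e* and rno-miR-490 minus rno-miR-490*. The miR-30e arms were not placed on the sides of their hairpin. Thus no likeness in the use of the arms is read from the sign.

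**Figure D4:**
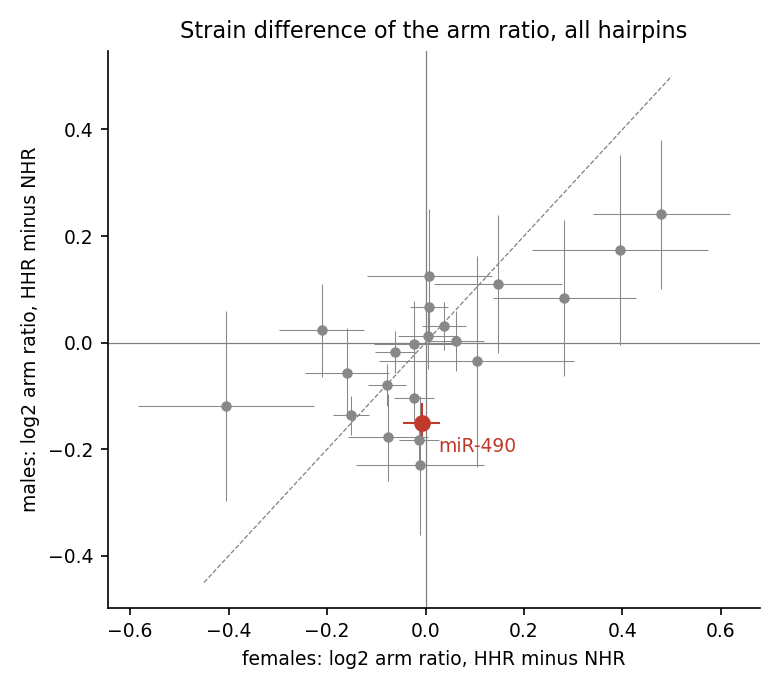
Strain difference of the log2 arm ratio, HHR minus NHR, in females (x axis) and males (y axis) for the 22 hairpins; the bars are standard errors and the dashed line marks equal differences. miR-490 (red) lies at -0.0079 in females and -0.15 in males.

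Other hairpins sit in genes of heart muscle, and they give miR-490 a frame: miR-208 in Myh6, miR-208b in Myh7 and miR-499 in Myh7b, which encode myosin heavy chains, and miR-378 in Ppargc1b, a coactivator of mitochondrial genes. Of the 8 arms on this list 5 were tested, and all 5 passed limma's test of strain, with 2 above and 3 below NHR, beside a background of 9.01% higher and 45.5% lower; their median difference was -0.13 against -0.11 for all tested miRNAs. rno-miR-378 was higher by 0.41 ± 0.034 (SE, adjusted p = 3.3e-07) and rno-miR-378* by 0.37 ± 0.037 (adjusted p = 1.9e-06), in the same direction and called under all 5 other scalings. The 3 lower arms turned sign with the scaling. rno-miR-499 was at -0.28 ± 0.027 (adjusted p = 1.8e-06) and turned under 2 of the 5 other scalings, and rno-miR-208b-3p (-0.17 ± 0.061, adjusted p = 0.0354) and rno-miR-208* (-0.13 ± 0.052, adjusted p = 0.0433) turned under all 5. Under 1 of them rno-miR-208* was called higher.

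Of the remaining arms, rno-miR-499* was detected on 2 arrays, and no array detected rno-miR-208 or rno-miR-208b-5p. No listed arm was called by sex. miR-378 is the one listed hairpin whose arm ratio could be set beside that of miR-490, and it gave a strain difference of 0.037 ± 0.027 (SE). That ratio is rno-miR-378 minus rno-miR-378*.

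Across the 16 arrays the pattern most like either arm, among the 184 other miRNAs detected on all arrays, was shared in large part between the arms. These correlations describe arrays that share 2 strains, slides and one scaling, and carry no test. The levels of the 2 arms correlated at r = 0.88. For rno-miR-490 the nearest others were rno-miR-351 (0.85), rno-miR-378* (0.85), rno-miR-503 (0.81), rno-miR-378 (0.80) and rno-miR-218 (0.78), none above its own partner arm. For rno-miR-490* they were rno-miR-378* (0.88), rno-miR-378 (0.84), rno-miR-503 (0.83), rno-miR-542-5p (0.81) and rno-miR-34a (0.78), with rno-miR-378* a little above the partner arm. All 7 were higher in HHR and stayed so under the 5 other scalings, from 0.11 ± 0.028 (SE) for rno-miR-542-5p to 0.96 ± 0.048 for rno-miR-34a. With normexp rno-miR-351 was at -0.19 and rno-miR-218 at -0.017. Correlation of levels over both strains favours miRNAs that differ in the same direction as the arms, so the shared direction is no separate finding.

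With the group means removed, so that strain and sex no longer entered, the nearest miRNAs were others. For rno-miR-490 they were rno-let-7i (0.79), rno-miR-130b (0.79), rno-miR-25 (0.77), rno-miR-107 (0.76) and rno-miR-331 (0.72). For rno-miR-490* they were rno-miR-331 (0.85), rno-miR-107 (0.83), rno-miR-181b (0.78), rno-let-7i (0.78) and rno-miR-324-5p (0.72). Of these, rno-let-7i, rno-miR-107 and rno-miR-331 stood on both lists, and the arms themselves correlated at 0.80. All 7 miRNAs were at or below -0.047 in the strain difference, opposite in sign to the arms, down to -0.13 ± 0.026 (SE) for rno-let-7i. That sign was the common one on this scale, where 59 of the 233 tested miRNAs were above 0 and the median was -0.11. Of the 7, rno-let-7i, rno-miR-130b, rno-miR-107 and rno-miR-181b were called lower in HHR by limma, beside 45.5% of all tested miRNAs. Each of the 7 turned sign under 4 or 5 of the 5 other scalings and was called higher under 1.

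Markers of the cells a heart sample can hold were read beside the strain difference, whose relation to them was not tested. Over all tested miRNAs 9.01% were called higher and 45.5% lower in HHR, and each count below stands beside those shares. Of the cardiac muscle list 5 of 6 were tested, with 0 called higher and 3 lower. Those were rno-miR-133b, rno-miR-208b-3p and rno-miR-499, which turned sign under 4, 5 and 2 of the 5 other scalings. rno-miR-1 (-0.10 ± 0.041, SE) and rno-miR-133a (-0.059 ± 0.027) were not called and turned under 5 and 4. rno-miR-133b, rno-miR-1 and rno-miR-133a were each called higher under 1 of those scalings. The list's summed level was 11499 to 12945 in HHR and 12256 to 13888 in NHR, so heart muscle miRNAs were plentiful in both strains. Both tested smooth muscle markers, rno-miR-143 and rno-miR-145, were lower (sums 1269 to 1341 in HHR and 1397 to 1483 in NHR). They turned sign under 4 and 5 of the 5 other scalings, each being called higher under 1. Both endothelial markers, rno-miR-126 and rno-miR-126*, were lower as well (964 to 1077 and 1157 to 1272), turning under 3. Of the fibroblast markers 1 of 3 was called, rno-miR-199a-5p, higher at 0.20 ± 0.072 (SE), with rno-miR-214 at 0.16 ± 0.070 and rno-miR-199a-3p at 0.12 ± 0.063. All 3 were above 0 under the 6 scalings, as the miR-490 arms and both tested erythroid markers were. The fibroblast markers were called higher under 4, 5 and 4 of the 5 other scalings in that order. Their summed level was 1243 to 1657 in HHR and 1175 to 1449 in NHR. Of the leukocyte markers 2 of 3 tested, rno-miR-150 and rno-miR-223, were called, lower, and were below 0 under all 6 scalings. The third, rno-miR-142-3p, was at -0.11 ± 0.092 (SE, adjusted p = 0.318 in limma) and turned sign under all 5 other scalings. rno-miR-142-5p was detected on no array, and rno-miR-155 was not on the array. The list's sums were 92.1 to 107 in HHR and 110 to 148 in NHR.

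Neither erythroid marker tested was called (199 to 307 and 209 to 332), but each was called higher under 1 of the 5 other scalings. The 1 neural marker tested, rno-miR-219-5p, was called, lower, and was below 0 under all 6 scalings (list sums 14.2 to 15.6 and 17.8 to 19.6), while the neuronal rno-miR-124, rno-miR-9, rno-miR-9* and rno-miR-137 and the liver's rno-miR-122 were detected on no array.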

How the data were processed

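The members, lists and tests were chosen with earlier results of these data known. The authors deposited scanner output: per the file headers, Agilent Feature Extraction 10.7.3.1 gave each spot's intensity, background-subtracted and not scaled between arrays, and detection flags are other values of 0 or 1. A log2 table deposited by the authors, for which the submitters' processing notes name limma, served as an alternative. Against each array's log2 median signal it gave r = 0.999, with column medians of 6.13 to 6.15; how it was centred, offset and scaled is not known.

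Outlier spots were dropped, spots of a probe averaged, and each array scaled to an equal 75th percentile over 258 probes well above background on all 16 arrays. Probes of a miRNA were averaged linearly, raised to a floor of 1.88 and log2 transformed. limma 3.58.1 in R 4.3.3 fitted 1 mean per group, with Benjamini-Hochberg adjustment over 233 miRNAs, or over 22 hairpins for arm ratios, at a threshold of 0.05; it was tested on simulated data. Each array is 1 animal, per the labels, with 2 of each group on each slide. Same-numbered arrays of different groups correlated from -0.42 to 0.59 in their deviations, with a median of 0.12 and 13 of 24 pairs over 0.1. Differently numbered arrays ran from -0.60 to 0.65, with a median of -0.069 and 24 of 72 pairs over 0.1. Same-numbered arrays also shared a slide, so whether the numbers pair animals was not settled, and the main fit left them unpaired. The hairpin was folded with RNAfold 2.7.2.

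Named miRNAs were the members, the heart muscle gene hairpins, the 5 most correlated by level and by deviation, and by arm ratio the 3 hairpins nearest on each side and the 3 largest each way. Cell type markers were listed in the same way. Alternatives covered the signal column, background, scaling, probes, filter, floor, moderation, weights, slide and replicate blocks, single slides, the deposited table and leaving out each array. Detection by probe flag, bright arrays alone (upper quartile above 400), hairpins detected on at least 4 arrays and normexp (offset 50) with the offset after scaling were added after seeing the data.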

Additional observations from a re-analysis of the deposited data

How the results depend on the processing

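The strain difference of rno-miR-490 (log2, HHR minus NHR) was 0.202 with the total gene signal, 0.245 with quantile normalization, 0.420 with the percentile over all probes, 0.479 with no scaling, 0.314 with median centring, 0.384 with spike-in scaling and 0.243 in the authors' deposited values. It was 0.0656 with normexp and the offset after scaling, and turned to -0.0155 with normexp and the offset before it; the cause was not tested. That of rno-miR-490* was 0.298 with quantile normalization, 0.498 with the percentile over all probes, 0.558 with no scaling, 0.393 with median centring and 0.463 with spike-in scaling, and 0.115 and 0.0388 with the offset after and before scaling. The arm ratio's strain difference was -0.116 with the dimmer probes, -0.0525 with quantile normalization, -0.0533 on slide 2, -0.0542 and -0.0499 with normexp and the offset before and after scaling, and -0.00698 in the deposited values. Leaving out each array gave 0.123 to 0.152, 0.199 to 0.238 and -0.093 to -0.067 for the arms and their ratio, and -0.165 to -0.114 for the interaction on the ratio (adjusted p in limma 0.109 to 0.454).

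The sex and interaction results of both arms and of the ratio stayed above the threshold under every alternative run. Sex differences of rno-miR-490 changed sign under 18 of 42 alternatives. The 127 calls between strains became 70 with the total gene signal, 48 with no scaling, 25 with spike-in scaling, 15 in the deposited values, 37 and 47 on slides 1 and 2, 74 with brightness as a covariate and 61 on bright arrays alone; smaller samples bear on the slide counts. Calls by sex rose from 0 to 3 with outlier spots kept, 3 with miRNAs detected on all arrays, 2 by probe flag, and 0 to 10 leaving out 1 array (10 without NHR male 1, 3 without HHR male 3, 2 without HHR male 4, and 1 each without NHR female 1 or NHR male 4). With the replicate block there were 124 calls between strains and 1 by sex, and the adjusted p of the ratio's interaction was 0.274; no call on the arms changed. The dimmer probe of rno-miR-490* was not well above background on 4 NHR arrays, which limits its value there.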
